A study of Mus musculus with 24 samples.

Results

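Peroxisomes take up their matrix enzymes, already folded, from the cytosol, and the genes described here encode the machinery that does so. Pex5, the receptor for cargo with a C-terminal PTS1 signal, also carries the PTS2 receptor Pex7 with its own cargo. The loaded receptor binds a docking complex that holds Pex13 and Pex14, ubiquitin ligases with RING domains, among them Pex2 and Pex10, mark the receptor for return to the cytosol, and an AAA ATPase complex that contains Pex6 and is anchored by Pex26 pulls it out of the membrane. The tubule of the kidney, above all the proximal tubule, is rich in peroxisomes. The 8 genes Pex5, Pex7, Pex13, Pex14, Pex2, Pex10, Pex6 and Pex26 were chosen by symbol, out of 55335 genes counted in each kidney, and all 8 passed the filter on low counts.

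RNA of whole kidneys from 24 mice was sequenced, 6 per genotype and sex: Ctrlm and cKOm for males, Ctrlf and cKOf for females. All mice were on the C57BL/6J background and were homozygous for a floxed Pex5 allele (Pex5lox/lox). They received doxycycline (DOX) from 8 weeks of age for 2 weeks. Their kidneys were taken 4 weeks later, at 14 weeks, and per the labels at zeitgeber time 9 (hours after lights on). The paper gives an earlier zeitgeber time for its experiments. The cKO mice also carried Pax8-rtTA, a DOX-dependent activator expressed in the renal tubule, and LC1, which makes Cre recombinase under that activator, while the Ctrl littermates carried the floxed allele alone, so deletion and the presence of the transgenes cannot be told apart. Cells outside the tubule are not targeted, the counts cover all exons of a gene, and in whole kidney fewer cells of a type and less RNA per cell cannot be told apart.

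The depth on genes was 19376152 to 28470831 reads a kidney, and 3 reads, the limit that a count of 0 allows, came to 0.105 to 0.155 CPM (reads scaled to a common library size; counting error only). The members had from 189 reads (Pex10, lowest kidney) to 1931 reads (Pex5, highest kidney). Proximal tubule markers (Lrp2, Cubn, Slc34a1, Slc5a2, Slc5a12 and Miox) were at 7175 to 11465 CPM in sum, and none of the 6 was at 0 in any group. Transcripts of hepatocytes were high in 4 Ctrlm kidneys and 1 cKOm kidney, where the mean log2 CPM of 8 markers was over 5, against 1.23 to 3.60 in the other kidneys, and the male genotype differences of the members are therefore also given without these 5 kidneys, which leaves 2 Ctrlm against 5 cKOm kidneys.

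The promoters of 7 of the 8 members were found in the RefSeq table of GRCm38.p6. The 250 bases before a start site are shown for Pex5, the deleted gene, for Pex7, the other receptor, and for Pex6. From kidney to kidney Pex7 correlated with Pex5 at r = 0.57, less than Pex2 did (0.70). Pex6 differed between the sexes in control mice in the direction opposite to Pex7. Pex5 has 3 start sites in that table, and the window lies before the one nearest the annotated start of the gene. They lie at chr6:124415068-124415317 (minus strand), chr10:19907675-19907924 (minus strand) and chr17:46711226-46711475 (plus strand), and capitals mark 3 motifs on either strand. The CCAAT box is named by its letters, GGGCGG is the GC box, and the letters CCGGAAG are the core bound by ETS factors; none of the 3 contains another.
Pex5: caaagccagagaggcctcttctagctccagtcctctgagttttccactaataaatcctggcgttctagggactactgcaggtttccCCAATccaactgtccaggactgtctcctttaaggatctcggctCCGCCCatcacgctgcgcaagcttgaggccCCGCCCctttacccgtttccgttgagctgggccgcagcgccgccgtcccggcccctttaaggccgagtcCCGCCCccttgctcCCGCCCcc
Pex7: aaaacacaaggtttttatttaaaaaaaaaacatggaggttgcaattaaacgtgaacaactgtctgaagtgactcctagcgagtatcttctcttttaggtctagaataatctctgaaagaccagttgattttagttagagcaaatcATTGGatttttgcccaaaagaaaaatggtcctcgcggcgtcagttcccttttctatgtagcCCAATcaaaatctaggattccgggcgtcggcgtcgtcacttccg
Pex6: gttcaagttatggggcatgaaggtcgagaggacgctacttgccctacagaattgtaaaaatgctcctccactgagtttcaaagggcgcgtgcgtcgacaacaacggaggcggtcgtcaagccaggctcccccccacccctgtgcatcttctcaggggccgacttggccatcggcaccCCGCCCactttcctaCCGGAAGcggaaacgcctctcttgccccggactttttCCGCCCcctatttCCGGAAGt
The Pex5 window held 1 CCAAT box and 4 GC boxes, the Pex7 window 2 CCAAT boxes and no GC box, and the Pex6 window 2 GC boxes and 2 ETS cores. Over the 7 members, a GC box was found in 5 windows, a CCAAT box in 2 and an ETS core in 2, and these motifs were present in 32.7%, 33.8% and 6.91% of the 32851 RefSeq windows of the same length. The E-box CACGTG was in none of the 7 windows and in 6.02% of all windows. GC content ran from 40% (Pex7) to 65.6% (Pex10), with a median of 58.8% against 52.4% over all windows. These matches describe the letters only.

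Per length, Pex5 and Pex2 were the most abundant members in Ctrlm kidneys. Divided by the length of the principal transcript, the level of Pex5 was 17.2 ± 1.47 CPM per kb and that of Pex2 was 16.2 ± 3.96 CPM per kb (SD, n = 6), a difference smaller than their spread. Pex6 (12.8 ± 1.27), Pex14 (12.4 ± 1.18) and Pex13 (11.3 ± 0.968 CPM per kb) followed, and neighbours among these 3 differed by less than their spread. Pex10 (6.96 ± 1.41) and Pex7 (6.53 ± 0.722 CPM per kb) lay lower and close to each other, and Pex26, the membrane anchor, was lowest at 4.52 ± 0.534 CPM per kb. The gaps between Pex13 and Pex10 and between Pex7 and Pex26 were wider than the SDs on either side. The order depends on the length used: over all annotated exons Pex14 stood at 3.96 and Pex10 at 3.56 CPM per kb, both under Pex7 at 4.37.

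**Figure D1:**
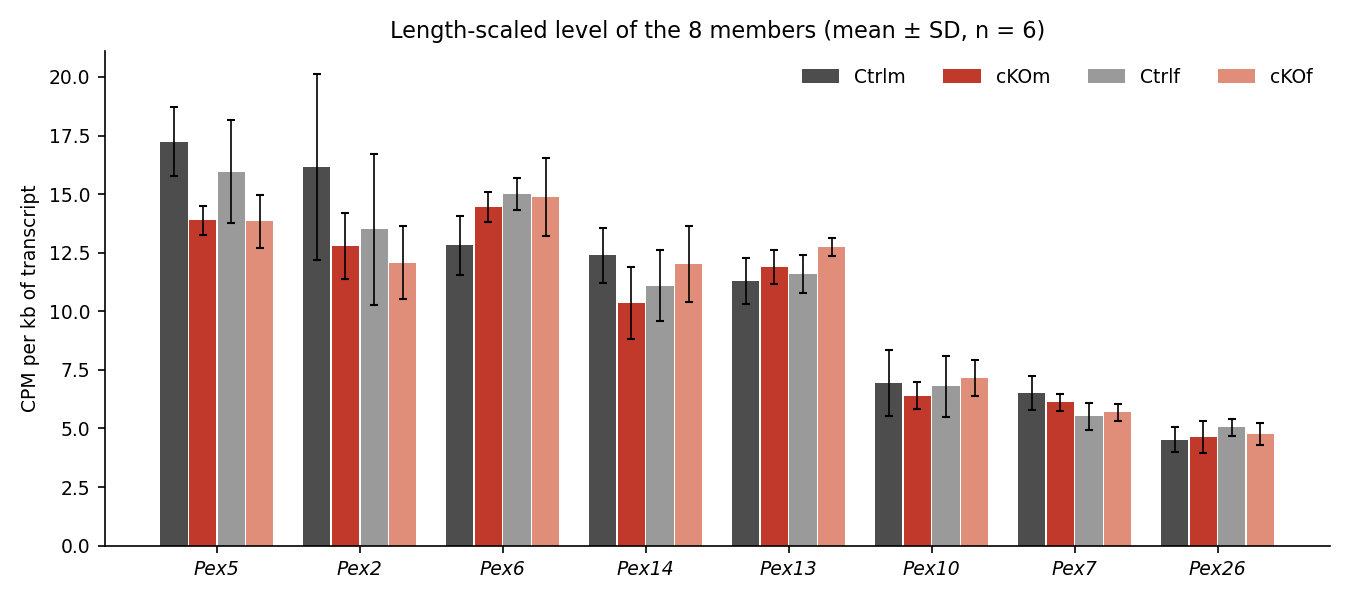
Length-scaled levels (CPM per kb of principal transcript) of the 8 members, ordered by the Ctrlm mean, with bars for the mean and whiskers for the SD of 6 kidneys per group. Pex5 stood at 17.2 in Ctrlm and 13.9 in cKOm kidneys, and Pex26 was lowest in every group.

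Pex5 was the only member that passed the adjusted threshold of 0.05 in males, with a lower level in cKOm. In the Ctrlm kidneys it ran from 49.1 over a median of 53.3 to 62.8 CPM, and in the cKOm kidneys from 41.8 over 43.0 to 47.3 CPM. All 6 cKOm values lay under the lowest Ctrlm value. The level fell by 0.31 on the log2 scale (SE 0.08), a difference of -19.4% (95% interval -28.3 to -9.44), with an adjusted p of 0.0219 (edgeR quasi-likelihood test) and an exact two-sided permutation p of 0.00216, the smallest that 6 against 6 kidneys allow. Because the counts cover all exons of Pex5, the difference in either sex does not measure how much of the floxed allele was deleted. Among all 16092 genes tested, 9.05% passed the same threshold in males, 4.90% with a lower level in cKOm, and 3.69% had all 6 cKOm values under all 6 Ctrlm values. Of the 8 members, 1 passed, and 5 had lower estimates in cKOm.

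The Pex5 call in males was lost without either of 2 kidneys. Without Ctrlm replicate 2, the highest Pex5 kidney, the log2 difference was -0.27 with an adjusted p of 0.0656 by edgeR, and without cKOm replicate 4 it was -0.30 with an adjusted p of 0.0505. With the hepatocyte level as a covariate it was -0.32 (edgeR adjusted p = 0.136). Without the 5 kidneys high in hepatocyte transcripts it was -0.26 (edgeR adjusted p = 0.382, 2 Ctrlm against 5 cKOm kidneys), and Pex5 then stood at 49.1 and 53.8 CPM in the 2 Ctrlm kidneys and between 42.8 and 47.3 CPM in the 5 cKOm kidneys, again without overlap. Markers of several cell types moved beside Pex5 in males. The summed proximal tubule markers stood at 7175 to 8189 CPM in cKOm against 7817 to 9355 CPM in Ctrlm, with Lrp2 (-0.33) and Slc34a1 (-0.33) lower by an edgeR adjusted p of 0.0192 and 0.00778, while Slc5a12 (0.63), Slc5a2 (0.10) and Miox (0.04) had higher estimates that did not pass, and the median over the 6 was -0.06. Estimates were lower in cKOm for 4 of 4 fibroblast markers (none passed) and 4 of 5 macrophage markers (1 passed, Csf1r at -0.34, edgeR adjusted p = 0.0399). They were also lower for 4 of 5 endothelium markers (none passed) and 8 of 8 hepatocyte markers (3 passed). Other lists went up or both ways. Of 4 intercalated cell markers 2 passed as higher and 1 as lower, and 1 of 4 thick ascending limb markers passed as higher. All 4 podocyte markers had higher estimates, and none passed. Apart from the hepatocyte fits given above, the part of these markers in the Pex5 result was not tested.

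In females the Pex5 values of the genotypes overlapped. They ran from 43.0 over a median of 48.2 to 61.7 CPM in Ctrlf and from 38 over 44.1 to 48.5 CPM in cKOf kidneys, where 2 kidneys lay under the lowest Ctrlf value. The log2 difference was -0.21 (SE 0.08, 95% interval -0.38 to -0.04), which did not pass (edgeR adjusted p = 0.177, exact two-sided permutation p = 0.0563). In the female comparison 0.851% of all genes passed, and none of the 8 members did, with 2 of 8 at an unadjusted edgeR p under 0.05 against 6.73% of all genes. The male and female Pex5 differences were themselves not distinguishable (difference of log2 fold changes -0.10, 95% interval -0.34 to 0.13, edgeR adjusted p = 0.754), and in the cKO kidneys the mean Pex5 level was 43.7 CPM in males and 43.6 CPM in females.

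Of the summed CPM of the 8 members, Pex5 made up 19.2 ± 1.28% in Ctrlm kidneys and 16.5 ± 0.867% in those of cKOm mice (SD, n = 6). The female shares were 18.3 ± 1.58% (Ctrlf) and 16.1 ± 0.684% (cKOf). The sum of the other 7 members was 229 ± 18.9 CPM in Ctrlm and 222 ± 7.24 CPM in cKOm kidneys. In females that sum was 223 ± 9.01 CPM in Ctrlf and 227 ± 12.6 CPM in cKOf, so in both sexes it differed by less than the SD.

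**Figure D2:**
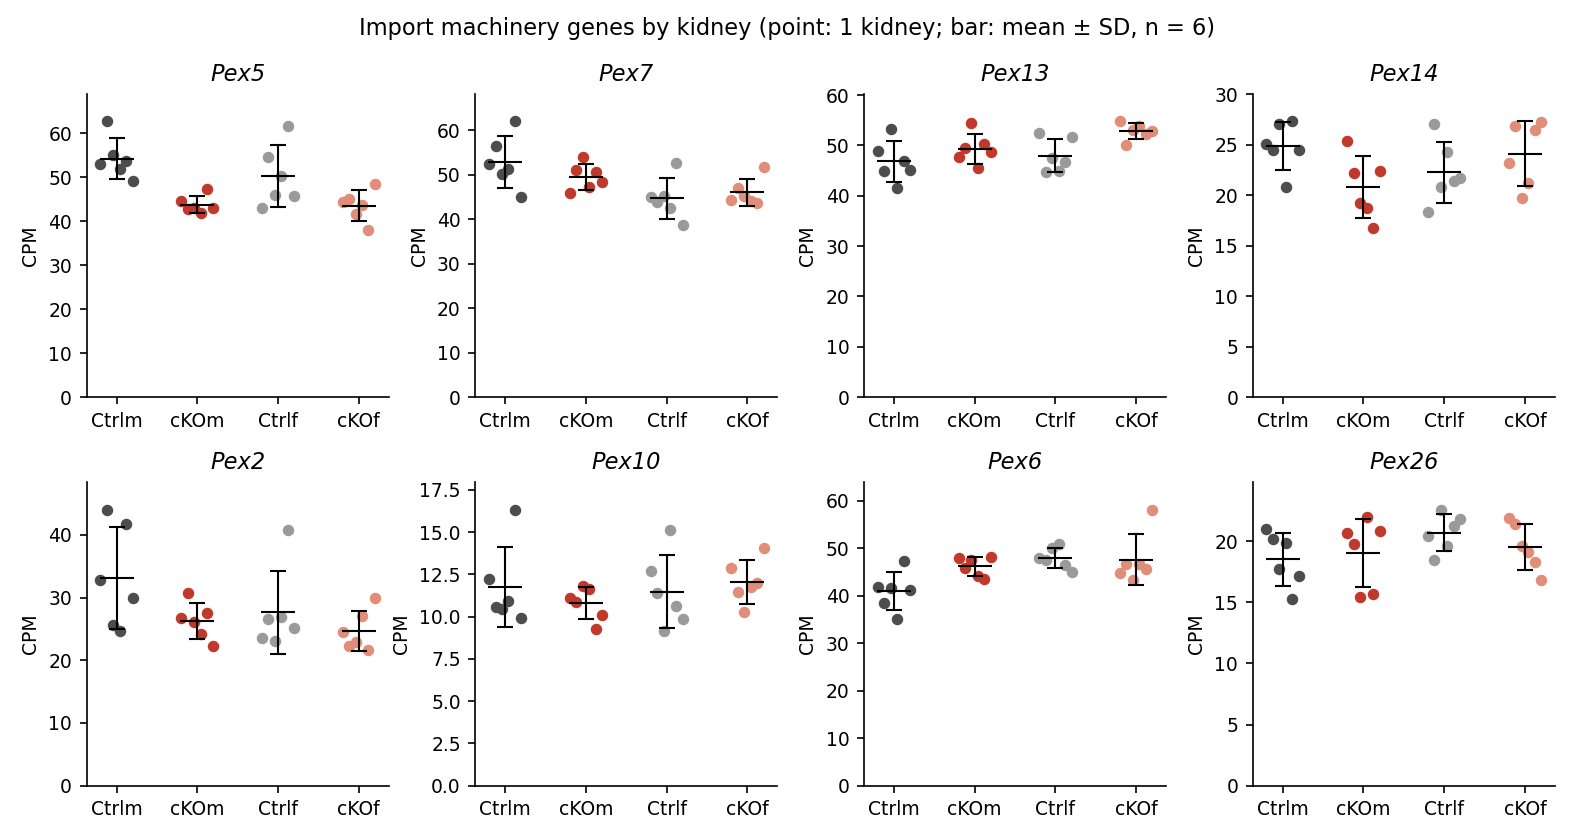
CPM of the 8 members in each of 24 kidneys (points), with the mean and SD of 6 kidneys per group as bars, on axes that start at 0. The 6 cKOm kidneys lie under the Ctrlm kidneys for Pex5 (at most 47.3 against at least 49.1 CPM), and the genotypes overlap within each sex for the other 7 genes.

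Pex7, which brings PTS2 cargo to Pex5, did not pass between the genotypes in either sex. It ran from 44.9 over 51.8 to 62.1 CPM in Ctrlm and from 45.9 over 49.5 to 54.0 CPM in cKOm (log2 difference -0.09, SE 0.08, edgeR adjusted p = 0.636). In females it ran from 38.6 over 44.5 to 52.6 CPM in Ctrlf and from 43.7 over 44.8 to 51.7 CPM in cKOf (log2 difference 0.04, SE 0.08, edgeR adjusted p = 0.867). The cKO values lay within the range of the Ctrl values in both sexes. The 95% interval of the change was -16.3% to 4.76% in males and -7.91% to 15.3% in females.

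In the docking complex, Pex14 and Pex13 differed in their point estimates, and neither passed over all genes. Pex14 ran from 20.8 over 24.8 to 27.3 CPM in Ctrlm and from 16.8 over 20.7 to 25.3 CPM in cKOm, and 3 of the 6 cKOm kidneys lay under every Ctrlm kidney. The log2 difference was -0.26 (SE 0.11, edgeR adjusted p = 0.218, exact permutation p = 0.0346). In females the Pex14 levels were 18.3 to 27.0 CPM in Ctrlf (median 21.5) and 19.7 to 27.3 CPM in cKOf (median 24.8), with a log2 difference of 0.12 (SE 0.11, edgeR adjusted p = 0.686). The male and female estimates had opposite signs, and the test of their difference gave -0.37 (SE 0.15, edgeR unadjusted p = 0.0224, adjusted p = 0.269). Of all genes, 2.31% passed the test of genotype by sex, and none of the 8 members did.

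Pex14 shares 1776 exon bases with Gm17029, a gene on the opposite strand. Whether the counting used strand is not stated in the sources used here, so how reads in the shared bases were assigned is not known. Gm17029 had a mean level of 1.68 CPM in Ctrlm and 2.56 CPM in cKOm kidneys (edgeR adjusted p = 0.201), in the direction opposite to Pex14.

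Pex13, the docking protein with an SH3 domain, ran from 44.7 over 47.1 to 52.4 CPM in Ctrlf and from 50.1 over 53.0 to 54.8 CPM in cKOf. Of the 6 cKOf kidneys, 4 lay above every Ctrlf kidney. The log2 difference was 0.14 (SE 0.07, exact permutation p = 0.0173), and it did not pass the edgeR test over all genes (adjusted p = 0.302). In males the values overlapped widely, from 41.6 over 46.1 to 53.3 CPM in Ctrlm and from 45.5 over 49.0 to 54.5 CPM in cKOm (log2 difference 0.08, SE 0.07, edgeR adjusted p = 0.657). Pex13 has a processed pseudogene, Pex13-ps, that matched it at 91.3% over 1182 bases and to which no read was assigned in any kidney. The ratio of Pex14 to Pex13 was 0.531 ± 0.0313 in Ctrlm and 0.423 ± 0.0727 in cKOm kidneys, and 0.468 ± 0.0906 in Ctrlf and 0.457 ± 0.0704 in cKOf kidneys (SD, n = 6 each).

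Pex2 and Pex10, the RING ligases that ubiquitylate the receptor, were the members with the widest spread between control mice. Pex2 ran from 24.7 over 31.4 to 44.0 CPM in Ctrlm and from 22.3 over 26.4 to 30.7 CPM in cKOm. The coefficient of variation was 24.5% in Ctrlm and 10.9% in cKOm kidneys. The male log2 difference of -0.34 was the largest estimate of any member, but its SE was 0.14 and it did not pass (edgeR adjusted p = 0.219, exact permutation p = 0.0866). In females Pex2 ran from 23.2 over 25.8 to 40.8 CPM in Ctrlf and from 21.6 over 23.8 to 30.0 CPM in cKOf (log2 difference -0.16, SE 0.14, edgeR adjusted p = 0.654). Pex10 was the least counted member, at 9.28 to 16.3 CPM in male and 9.14 to 15.1 CPM in female kidneys, and its genotype intervals were wide, from -23.1% to 10.3% in males and from -12.2% to 25.8% in females. The male log2 difference of Pex10 was -0.12 (edgeR adjusted p = 0.731) and ran from -0.19 to 0.00 with 1 kidney left out.

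Of the genes that return the receptor to the cytosol, Pex6 had the higher estimate in cKO males. It ran from 35.1 over 41.5 to 47.4 CPM in Ctrlm and from 43.6 over 46.8 to 48.2 CPM in cKOm, where 3 kidneys lay above every Ctrlm kidney. The log2 difference was 0.17 (SE 0.07), and it did not pass over all genes (edgeR adjusted p = 0.230, exact permutation p = 0.0152). Without the 5 kidneys high in hepatocyte transcripts the male Pex6 difference was 0.04 (edgeR adjusted p = 0.936). In females Pex6 ran from 45.1 over 47.8 to 50.8 CPM in Ctrlf and from 43.3 over 46.2 to 58.2 CPM in cKOf (log2 difference -0.01, SE 0.07, edgeR adjusted p = 0.963).

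Pex26, which tethers that ATPase complex to the membrane, overlapped between all groups and passed in neither sex. It lay between 15.2 and 21.9 CPM in all 24 kidneys except for 1 Ctrlf kidney at 22.6 CPM. The 95% interval of the cKO difference was -10.7% to 18.6% in males and -18.0% to 8.75% in females.

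Over the 8 members the median log2 difference between cKOm and Ctrlm was -0.11, against 0.01 over all genes tested, and the median size without sign was 0.15 against 0.19. Without the 5 kidneys high in hepatocyte transcripts none of the 8 passed, and the male log2 differences (edgeR adjusted p of at least 0.275) were -0.14 for Pex7, 0.09 for Pex13, -0.33 for Pex14, -0.46 for Pex2, -0.34 for Pex10 and 0.16 for Pex26, beside those given for Pex5 and Pex6. Pex10 moved most, from -0.12 over all kidneys. The 2 Ctrlm kidneys left had 9.94 and 16.3 CPM of Pex10, and the 5 cKOm kidneys 9.28 to 11.8 CPM. The kidney at 16.3 CPM was Ctrlm replicate 5, which stood apart from its group for Pex10. In males 4 of the 8 (Pex5, Pex14, Pex2 and Pex6) had an unadjusted edgeR p under 0.05, compared with 25.1% of all genes. In females the median over the members was 0.01, and over all genes it was 0.00.

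**Figure D3:**
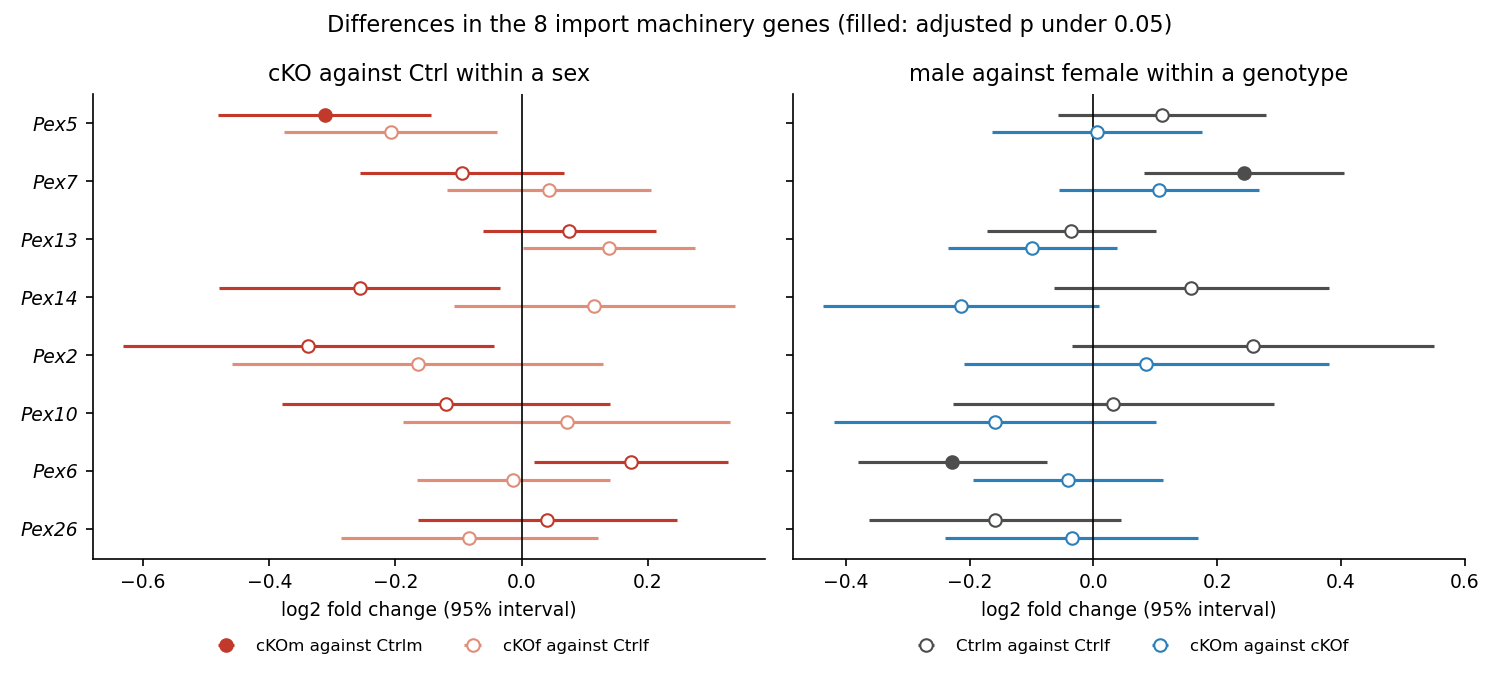
Log2 fold changes of the 8 members with 95% intervals, for cKO against Ctrl within each sex (left) and males against females within each genotype (right), with filled points where the edgeR adjusted p was under 0.05. The filled points are Pex5 in cKOm against Ctrlm (-0.31) and, between Ctrlm and Ctrlf, Pex7 (0.24) and Pex6 (-0.23).

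Between control mice of the 2 sexes, 1 receptor and 1 export gene differed in opposite directions. Pex7 was higher in Ctrlm than in Ctrlf by 0.24 on the log2 scale (SE 0.08, edgeR adjusted p = 0.0324), and 2 Ctrlm kidneys lay above every Ctrlf kidney. Pex6 was lower in Ctrlm by a log2 difference of -0.23 (SE 0.07, edgeR adjusted p = 0.0344), with 5 of 6 Ctrlm kidneys under the lowest Ctrlf kidney. Markers of other cell types moved in the same comparison: 3 of 4 thick ascending limb, 2 of 3 distal convoluted tubule, 3 of 4 podocyte and 2 of 4 intercalated cell markers were lower in Ctrlm, and 8 of 8 hepatocyte markers were higher, each past the same threshold. Of the 6 proximal tubule markers 3 passed, 1 higher and 2 lower in Ctrlm. Apart from the hepatocyte fits given below, the part of all these markers in the Pex7 and Pex6 differences was not tested. Of all genes, 16.8% passed this comparison (8.71% higher and 8.11% lower in Ctrlm), beside 2 of the 8 members. Without the 5 kidneys high in hepatocyte transcripts neither passed, Pex7 at 0.29 (edgeR adjusted p = 0.161) and Pex6 at -0.09 (adjusted p = 0.670). Leaving out 1 kidney also ended the Pex7 call for 5 of the 24 kidneys (Ctrlm replicates 2 and 5 and Ctrlf replicates 1, 2 and 6, edgeR adjusted p up to 0.0976). The Pex6 call ended for 10 (Ctrlm replicates 2, 3, 4 and 6, Ctrlf replicates 1 to 5 and cKOm replicate 5, edgeR adjusted p up to 0.111). Pex2, which did not pass (log2 difference 0.26, edgeR adjusted p = 0.245), passed without Ctrlf replicate 5 (0.43, adjusted p = 0.0241). Between cKOm and cKOf none of the 8 members passed, and 8.14% of all genes did.

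From kidney to kidney, Pex5, Pex2 and Pex7 varied together. After the mean of each group was subtracted, the log2 CPM of Pex5 and Pex2 correlated at r = 0.70 over the 24 kidneys, those of Pex7 and Pex2 at 0.67, and those of Pex5 and Pex7 at 0.57. Ctrlm replicate 2 was highest in its group for both Pex5 and Pex2 (62.8 and 44.0 CPM), as was Ctrlf replicate 5 (61.7 and 40.8 CPM). These kidneys also had the deepest libraries (28470831 and 27401081 reads on genes) and the highest normalization factors (1.07 and 1.14). Their part in the correlations was not tested. Pex10 and Pex14 each correlated with Pex6 (0.57 and 0.56). Over all 28 pairs the median was 0.08, 17 were positive, and the lowest was -0.42. These are descriptions of 24 libraries that share normalization. The genes most like Pex5 by this measure were Polr1c (0.86), a subunit of RNA polymerases I and III, Gga2 (0.84), a clathrin adaptor of the Golgi, Echs1 (0.79), a mitochondrial enzyme of fatty acid oxidation, Bphl (0.79), a serine hydrolase, and C1qtnf12 (0.79), a secreted protein of the C1q and TNF family.

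Genes that act beside the members were measured in the same kidneys. Of 5 genes that help recycle the receptor (the ubiquitin-conjugating enzymes Ube2d1, Ube2d2a and Ube2d3, the deubiquitinase Usp9x and Zfand6), none passed in either sex, with log2 differences of -0.13 to 0.22 in males and -0.10 to 0.06 in females. Tysnd1, the protease that trims imported enzymes, was lower in cKOm, at 20.3 to 24 CPM against 24.4 to 35.7 CPM in Ctrlm (log2 difference -0.42, SE 0.11, edgeR adjusted p = 0.0161), a call that was lost without Ctrlm replicate 1 or 5 (adjusted p up to 0.0563) and without the 5 kidneys high in hepatocyte transcripts (-0.47, adjusted p = 0.123). In females Tysnd1 did not pass (-0.01, edgeR adjusted p = 0.988). Lonp2, the other protease of the matrix, had log2 differences of 0.17 in males and 0.21 in females that did not pass (edgeR adjusted p = 0.274 and 0.164). Pex5l, a relative of Pex5 expressed mainly in neurons, stayed at 2.27 to 2.79 CPM on average in the 4 groups and did not pass in either sex.

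Among 9 genes of peroxisome membrane assembly and division, Pex11a, an inducible division factor, rose in both sexes, with a log2 difference of 0.39 in males (SE 0.09, edgeR adjusted p = 0.00848) and 0.49 in females (SE 0.09, edgeR adjusted p = 0.00100). Its relative Pex11g fell in males by 0.52 (SE 0.16, edgeR adjusted p = 0.0490), and the other 7 genes passed in neither sex. The male Pex11a call was lost without Ctrlm replicate 6 (edgeR adjusted p = 0.0539), and the Pex11g call without any 1 of 14 kidneys (adjusted p up to 0.164). Without the 5 kidneys high in hepatocyte transcripts, 0 of the 9 passed in males.

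The cargo of the receptors moved in both directions. Of 4 PTS2 proteins, Acaa1b, a peroxisomal thiolase, rose in males by a log2 difference of 1.23 (edgeR adjusted p = 2.36e-06) and in females by 1.14 (adjusted p = 8.39e-06). Agps, an enzyme of ether lipid synthesis, fell in males by 1.13 (edgeR adjusted p = 1.59e-07), from 383 to 488 CPM in Ctrlm to 179 to 203 CPM in cKOm. In females Agps stood at 98.0 to 165 CPM in Ctrlf and 83.1 to 141 CPM in cKOf (edgeR adjusted p = 0.599). Phyh, the phytanoyl-CoA hydroxylase, rose in females by 0.34 (edgeR adjusted p = 0.0157) and did not pass in males (-0.11); its female call was lost in the fit without the 5 male kidneys (edgeR adjusted p = 0.0614). Acaa1a passed in neither sex.

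Of 43 PTS1 cargo genes, 9 rose and 9 fell in males and 6 rose and 2 fell in females, with a median log2 difference of -0.19 in males and 0.02 in females. Of all genes, 4.14% rose and 4.90% fell in males, and 0.391% rose and 0.460% fell in females. In males the 6 with the smallest adjusted p were the racemase Amacr (log2 difference -1.36), the acyl-CoA oxidase Acox3 (-1.04), the thioesterase Acot3 (2.00), the acyltransferase Crot (-1.07), the enoyl-CoA reductase Pecr (-1.29) and the epoxide hydrolase Ephx2 (-0.88), with edgeR adjusted p of at most 1.32e-06. In females they were Acot3 (0.96), Baat, which conjugates bile acids (-1.51), Ehhadh, the bifunctional enzyme of peroxisomal beta-oxidation (0.54), Nudt7, a CoA diphosphatase (0.38), the thioesterase Acot4 (0.47) and Hsdl2 (0.43), with edgeR adjusted p of at most 0.0134. Without the 5 kidneys high in hepatocyte transcripts 3 of the 43 rose in males (Ehhadh, Decr2 and Acot3) and 7 fell (Acox3, Amacr, Pecr, Crot, Nudt19, Prdx5 and Ephx2). Of all 15955 genes then tested 172 rose and 427 fell, against 667 and 789 of 16092 with every kidney. The 3 lowest male estimates, Uox (-2.55), Hao1 (-2.50) and Agxt (-2.34), did not pass (edgeR adjusted p of at least 0.120). All 3 passed without cKOm replicate 4, the cKOm kidney high in hepatocyte transcripts (edgeR adjusted p = 0.000593, 0.00397 and 0.0340). Without the 5 kidneys none of the 3 reached the filter on low counts. The median size without sign in males was 0.43 for the PTS1 cargo, 0.62 for the PTS2 cargo and 0.15 for the 8 members.

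**Figure D4:**
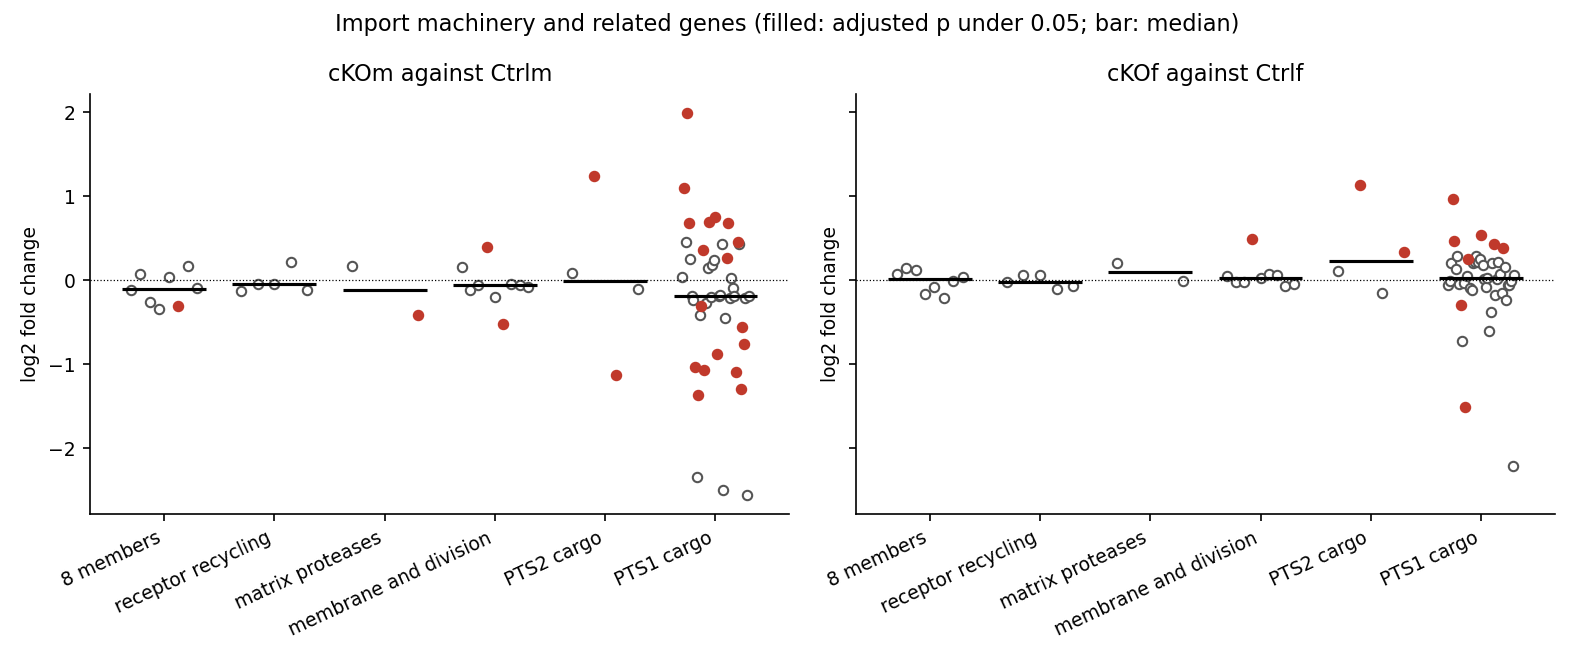
Log2 fold changes of cKO against Ctrl in males (left) and females (right) for the 8 members and the lists of related genes, 1 point per gene, filled where the edgeR adjusted p was under 0.05, with a bar at the median of each list. The members lie between -0.34 and 0.17 in males, while PTS1 cargo genes that passed reach from -1.36 (Amacr) to 2.00 (Acot3).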

How the data were processed

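Whole-kidney mRNA of 24 mice was sequenced with a stranded kit, and the authors deposited 1 file per kidney of raw read counts per gene. Per the labels, reads were trimmed with cutadapt 1.8, aligned to GRCm38 with STAR 2.5.3a and counted with HTSeq 0.9.1; the strand setting of the counting is not given in the sources used here. The 5 closing lines of each file were set aside, and reads without a unique alignment were 26.9 to 34.8% of the sum of all lines. Names and positions came from GENCODE vM21.

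The 16092 genes that reached 1 CPM in 1 or more kidneys entered the tests, run in R 4.3.3 with edgeR 4.0.16: TMM normalization, 1 model of 4 groups, quasi-likelihood tests. Benjamini-Hochberg adjustment took both sexes of the genotype comparison as 1 family, and otherwise all genes of a comparison, at a threshold of 0.05. CPM were TMM-scaled, and log2 CPM used a prior count of 2. Exact permutation tests were two-sided on log2 CPM of 6 against 6 kidneys. The scripts were tested on simulated data.

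Alternatives were limma-voom (limma 3.58.1), DESeq2 1.42.0, RLE normalization, other filters, fits by sex, a replicate block, a hepatocyte covariate and leaving out each kidney. Those for the comparison of controls between the sexes, and leaving out the 5 kidneys high in hepatocyte transcripts, were chosen after seeing the data. Replicate numbers name different mice and were not taken as pairs. The labels do not say whether mice shared a litter.

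Named were the 8 members, the genes of each list past the threshold (at most 6 per list and sex, with the smallest adjusted p), lists of 5 or fewer genes in full, except for 1 list that is not reported here, and the 5 genes most like Pex5. The members and lists were chosen with earlier results of these data known. Promoter windows came from RefSeq, and transcripts were compared by blastn at a minimum of 90% identity over 300 bases.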

Additional observations from a re-analysis of the deposited data

Results flagged for a closer look

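3 kidneys stood apart from the rest of their group for a member. Ctrlf replicate 5 had 40.8 CPM of Pex2, and the next highest Ctrlf kidney had 26.9 CPM. Ctrlm replicate 5 had 16.3 CPM of Pex10 against 12.2 CPM in the next kidney. In cKOf replicate 6, Pex6 stood at 58.2 CPM, and the next kidney at 46.8 CPM. In each case the gap to the nearest kidney was larger, as a share of the range of the group, than Dixon's 95% limit for 6 samples. Chance alone does this in about 1 of 20 groups, and 32 groups were looked at.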

How the results depend on the processing

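The direction of the male Pex5 difference held in every alternative, and its log2 size ran from -0.34 to -0.26. The call was lost with the hepatocyte covariate (-0.32, edgeR adjusted p = 0.136; 0 of 8 members called, 745 of all genes) and without the 5 kidneys high in hepatocyte transcripts (-0.26, edgeR adjusted p = 0.382; 0 members, 599 genes), where fewer kidneys entered. With 1 kidney left out it ran from -0.37 to -0.27 and the number of members called in males was 0 to 1. With the replicate block, although same-numbered kidneys come from different mice and their deviations were not correlated (r from -0.20 to 0.12), the male Pex5 adjusted p was 0.0405 by edgeR, and 1 of the 8 members passed between the controls of the 2 sexes. In that comparison the 2 calls became 1 with DESeq2, RLE normalization and the stricter filter, 0 with every gene that had a count, with the covariate (1466 genes) and without the 5 kidneys (1570 genes), and 0 to 2 with 1 kidney left out. Over all genes the female count was 137 in the reported fit, 43 with adjustment within each sex and 83 without the 5 kidneys, and the count for genotype by sex was 372, 574 by DESeq2 and 225 with the covariate. None of the 8 members passed in females or in the test of genotype by sex under any alternative. The cause of these shifts was not tested. The precision for each member is that of its 95% interval over 6 kidneys a group.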
